A study of Homo sapiens with 6 samples.

Results

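The expression of 10 genes that are controlled by, or hold back, the ERK kinases was examined in 2 human cancer cell lines after knockdown of *SPOP*. The genes were taken by symbol from the deposited tables, and all 10 were found, each listed once, among 24551 genes. They are *DUSP4*, *DUSP5* and *DUSP6*, *SPRY2*, *SPRY4* and *SPRED1*, and *ETV4*, *ETV5*, *FOSL1* and *EGR1*. DU145 is a prostate carcinoma line derived from a brain metastasis, and 769-P is a renal cell adenocarcinoma line. Each line gave 3 RNA-Seq libraries of polyadenylated RNA, 1 from cells with the control siRNA (NC), 1 with SPOP siRNA 1 and 1 with SPOP siRNA 2. SPOP is the substrate-binding subunit of a CUL3 ubiquitin ligase, and the comparison asks how its loss changes gene expression in each line. The labels list 1 library per siRNA although the study's methods speak of 2 biological replicates, so n = 2 below means 2 different siRNAs, and each control stands alone. P-values therefore measure the spread between the siRNA libraries. The time of harvest of the RNA-Seq cells was not given in the sources used here.

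The ERK cascade carries signals from growth factor receptors through RAS, RAF and MEK to the ERK kinases. Active ERK switches on transcription factors such as EGR1, FOSL1, ETV4 and ETV5, and also switches on its own brakes. Dual-specificity phosphatases remove the activating phosphates from ERK, while Sprouty and SPRED proteins act further up, around RAS and RAF. Transcripts of these genes are widely read as a sign of ERK output, but no phosphorylation of ERK was measured in these libraries.

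Values are FPKM, fragments scaled by transcript length and by library size, which allow levels to be compared between genes. Read counts were not used here, and a rough depth read from the steps between low values ranged from 0.683 to 1.404 times that of the 769-P control. *SPOP* itself was left at 17.2% and 18.4% of the control in DU145 and at 13.2% and 12.04% in 769-P, with siRNA 1 and siRNA 2. The DU145 control and the 769-P siRNA 2 library stood apart, with values above 0 for 287 and 237 of 366 olfactory receptor genes, against 3 to 5 in the others, and a mean of 0.345 and 0.227 FPKM there. The lowest value of the 10 genes in 769-P was 0.420 FPKM, and calls were repeated with the olfactory receptor mean subtracted. As for identity, *PAX8*, a renal transcription factor, had 106 to 126 FPKM in 769-P and 1.10 to 1.47 in DU145, whereas the renal tumor marker *CA9* was listed at 0 in 769-P. *KLK3*, *KLK2* and *TMPRSS2* were at most 0.312 FPKM in DU145, so the prostate label is not carried by these markers, and *EPCAM* and *CDH1* were higher in DU145 than in 769-P. Endothelial markers summed to at most 0.247 FPKM in any library. Fibroblast markers summed to 1.79 to 10.4 FPKM, most of it *COL1A1*, and of the leukocyte markers only *CD68* was above 1 FPKM.

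The lines were compared first, over all libraries of each. Every DU145 library was above every 769-P library for 9 of the 10 genes, all but *FOSL1*, while 35.1% of the 11865 genes that averaged 1 FPKM or more were ordered in this way. All 10 genes passed that filter. In a limma fit on log2(FPKM + 1), with p-values adjusted by the Benjamini-Hochberg method over all genes tested, 6 of the 10 were higher in DU145 at an adjusted p under 0.05 and 0 were higher in 769-P. Of all genes tested, 26.8% were higher in DU145 and 15.3% in 769-P. The log2 differences of the 6 genes ran from 1.49 to 3.35, against a median of 0.14 over all genes. With quantile normalization, which changed the number of genes higher in DU145 from 3175 to 2603 and in 769-P from 1819 to 2715 and the median to -0.05, the same count of 6 passed with differences of 1.26 to 3.13.

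**Figure D1:**
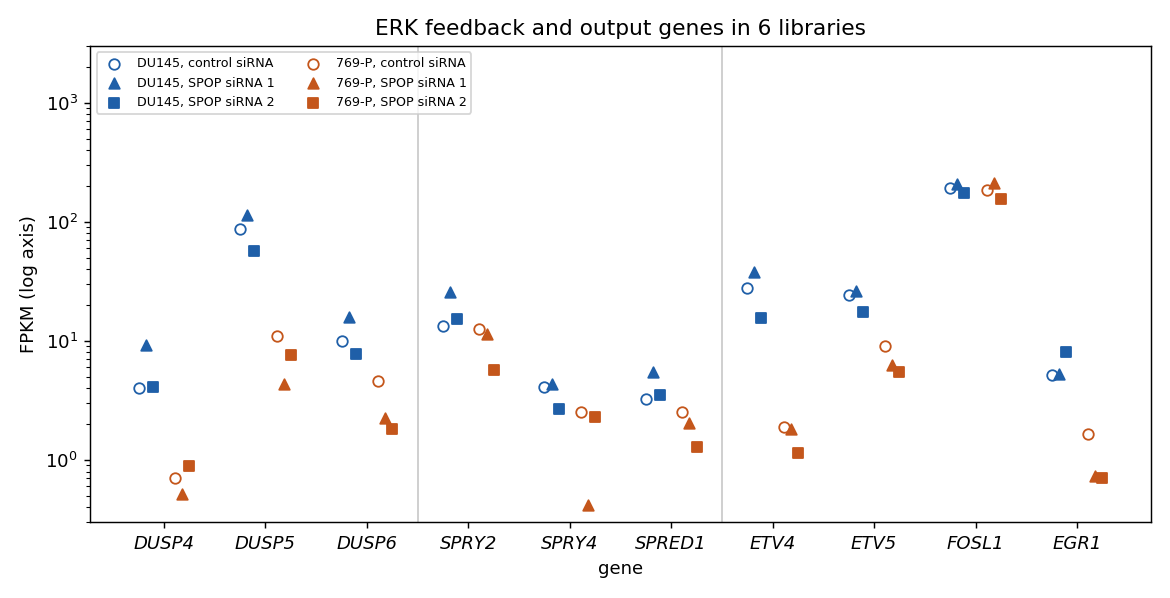
FPKM (log axis) of the 10 genes in the 6 libraries, with DU145 in blue, 769-P in orange, open circles for the control siRNA, triangles for SPOP siRNA 1 and squares for SPOP siRNA 2. *FOSL1* sits between 156 and 212 FPKM in both lines, and the lines are farthest apart for *ETV4* and *DUSP5*.

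Among the phosphatases, *DUSP5*, a nuclear phosphatase for ERK (chromosome 10 of GRCh37, 112257665 to 112271291), was the most abundant. The DU145 libraries held 86.4 (control), 114 (siRNA 1) and 56.9 FPKM (siRNA 2). Those of 769-P held 11.0, 4.31 and 7.66 FPKM in the same order. The lowest DU145 library thus lay well above the highest 769-P library, and the log2 difference was 3.23 (standard error 0.35, adjusted p = 0.00174 from limma). *DUSP4*, another nuclear phosphatase (chromosome 8, 29190581 to 29208201), had 4.0, 9.32 and 4.10 FPKM in DU145 and 0.706, 0.515 and 0.888 FPKM in 769-P. Its value in the 769-P siRNA 2 library is within a few times the olfactory receptor mean there, 0.227 FPKM. That mean was 0.0052 FPKM in the 769-P control and 0.0055 with siRNA 1. The log2 difference of *DUSP4* was 1.83 (standard error 0.33, adjusted p = 0.00887 from limma). It was 2.17 without the DU145 control and the 769-P siRNA 2 library, but did not pass in that smaller fit. The DU145 level there rests on the knockdown libraries alone. *DUSP6*, the cytoplasmic phosphatase that is selective for ERK (chromosome 12, 89741012 to 89746278), had 9.98, 15.9 and 7.78 FPKM in DU145 against 4.63, 2.23 and 1.82 FPKM in 769-P. Its difference of 1.49 (standard error 0.30, adjusted p = 0.0136 from limma) was 1.51 without those 2 libraries, and also did not pass there. With the olfactory receptor mean subtracted, 6 of the 10 genes still passed between the lines.

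The transcription factors spanned the widest range. *ETV4*, an ETS factor of the PEA3 group (chromosome 17, 41605212 to 41656988), had 27.8, 38.0 and 15.7 FPKM in DU145 and only 1.88, 1.81 and 1.15 FPKM in 769-P, the largest difference of the 10 genes (log2 difference 3.35, standard error 0.38, adjusted p = 0.00189 from limma). In the controls alone this was a ratio of 14.8. Its relative *ETV5* (chromosome 3, 185764103 to 185828107) was nearer between the lines, with 24.2, 26.1 and 17.4 FPKM in DU145 and 9.06, 6.31 and 5.53 FPKM in 769-P. For *ETV5* the log2 difference was 1.51 (standard error 0.22, adjusted p = 0.00436 from limma). It was 1.38 without the 2 libraries that stood apart, and did not pass there. *EGR1*, an immediate early zinc finger factor (chromosome 5, 137801168 to 137804992), had 5.21, 5.30 and 8.02 FPKM in DU145 and 1.65, 0.741 and 0.712 FPKM in 769-P, a log2 difference of 1.68 (standard error 0.22, adjusted p = 0.00302 from limma). *FOSL1*, which encodes the AP-1 subunit FRA-1 (chromosome 11, 65659520 to 65668044), was the exception. It was the most abundant of the 10 genes, with 191, 206 and 173 FPKM in DU145 and 186, 212 and 156 FPKM in 769-P, and the ranges overlapped almost fully. The 95% interval of its log2 difference was -0.43 to 0.52.

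The Sprouty and SPRED genes differed least among the genes that did not overlap. *SPRY2* (chromosome 13, 80910111 to 80915261) had 13.3, 25.7 and 15.4 FPKM in DU145 and 12.6, 11.5 and 5.73 FPKM in 769-P, so that the controls were nearly equal and only the knockdown libraries were far apart. *SPRY4* (chromosome 5, 141689992 to 141706020) had 4.13, 4.34 and 2.70 FPKM in DU145 and 2.55, 0.420 and 2.31 FPKM in 769-P. *SPRED1*, whose product brings the RAS inactivator neurofibromin to the membrane (chromosome 15, 38545037 to 38649450), had 3.23, 5.47 and 3.52 FPKM against 2.51, 2.04 and 1.28 FPKM. The adjusted p from limma was 0.186 for *SPRY2*, 0.162 for *SPRY4* and 0.0820 for *SPRED1*, with 95% intervals of -0.21 to 1.48, -0.19 to 1.76 and 0.042 to 1.27 on the log2 scale. Within a line the order of the levels was led by *FOSL1* in both, followed in the controls by *DUSP5*, *ETV4* and *ETV5* in DU145 and by *SPRY2*, *DUSP5* and *ETV5* in 769-P. *DUSP5* had 86.4 FPKM and *ETV4* 27.8 in the DU145 control, but from *ETV4* to *ETV5*, or among *DUSP4*, *SPRY4* and *SPRED1*, the steps were smaller than the difference between the siRNA libraries. The same held in 769-P for *SPRY2* and *DUSP5*. Several of these genes overlap others in the annotation of GRCh37, with *SPRY4-AS1*, *ETV5-AS1* and *DHX8* on the opposite strand of *SPRY4*, *ETV5* and *ETV4* and *DGKG* on the same strand as *ETV5*. Whether counting used strand is not given in the sources used here, so reads from such pairs could be shared.

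After *SPOP* knockdown in 769-P the genes were mostly lower. With siRNA 1, 9 of the 10 were below the control, with *FOSL1* above it, and with siRNA 2 again 9 of the 10, with *DUSP4* above it. Lower with both were 8 genes, while 39.5% of all genes tested were. The median log2 change of the 10 was -0.33 with siRNA 1 and -0.55 with siRNA 2, against 0 and -0.06 for all genes tested. Called genes are those past 1.5-fold on 1 side of the control with each siRNA. *DUSP6* and *EGR1* were called lower and 0 genes higher, where 3.73% of all genes tested were called lower and 3.60% higher. A single control serves both siRNAs of a line, so an unusual value in it moves both changes alike.

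*DUSP6* had 4.63 FPKM in the control and 2.03 ± 0.287 after knockdown (SD, n = 2), leaving 48.2% with siRNA 1 and 39.4% with siRNA 2. Its log2 change was -0.80 with siRNA 1 and -0.99 with siRNA 2. *EGR1* had 1.65 FPKM in the control and 0.726 ± 0.0205 after knockdown (SD, n = 2), with 44.8% and 43.1% left. The siRNA libraries lay close together for *EGR1*, but at a low level, and with changes centred on the median of all genes its log2 change with siRNA 2 was -0.57 and the call was lost. With the olfactory receptor mean subtracted, both genes were still called. *ETV5* was also steady between the siRNAs, with 9.06 FPKM in the control and 5.92 ± 0.5501 after knockdown (SD, n = 2), with log2 changes of -0.46 and -0.62 that passed 1.5-fold with siRNA 2 only.

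The promoters of the 2 called genes are shown because both were lower with each siRNA in 769-P. They are the 250 bases before the start site in RefSeq, build GRCh38.p14, on the minus strand at chr12:89352502-89352751 for *DUSP6* and on the plus strand at chr5:138465229-138465478 for *EGR1*, and capitals mark CArG boxes, the binding motif of serum response factor.
*DUSP6*: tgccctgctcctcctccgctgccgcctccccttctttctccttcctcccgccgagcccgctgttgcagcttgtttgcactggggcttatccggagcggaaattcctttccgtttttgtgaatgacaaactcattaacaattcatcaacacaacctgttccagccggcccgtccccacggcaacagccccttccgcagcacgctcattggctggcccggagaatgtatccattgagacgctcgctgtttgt
*EGR1*: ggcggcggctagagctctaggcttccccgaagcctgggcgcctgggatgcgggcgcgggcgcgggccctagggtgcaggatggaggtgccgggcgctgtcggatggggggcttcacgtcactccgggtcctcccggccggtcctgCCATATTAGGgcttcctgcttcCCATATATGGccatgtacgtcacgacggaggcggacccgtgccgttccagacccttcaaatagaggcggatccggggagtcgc

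Of the 10 genes, 5 matched the promoter table by symbol (*DUSP6*, *SPRY2*, *SPRY4*, *SPRED1* and *EGR1*). The window of *EGR1* holds 2 CArG boxes, from 105 to 96 and from 83 to 74 bases before the start, and 1.16% of the 35116 promoter windows hold at least 1. Searched on both strands, the AP-1 motif TGANTCA (6.57% of windows), the cyclic AMP element TGACGTCA (1.65%) and the ETS motif CCGGAAGT (3.42%) were in none of the windows of these 5 genes. The EGR motif, GCGGGGGCG or GCGTGGGCG (5.37%), was found in *SPRY2* alone, and only in the first of the several windows listed for that gene. The other genes matched have a single window each. None of the matches found overlap each other, and a match is a description of the sequence only.

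The remaining 769-P changes depended on the siRNA. *DUSP5* had 39.2% of the control left with siRNA 1 and 69.6% with siRNA 2. *SPRY4* had 16.5% left with siRNA 1 but 90.5% with siRNA 2, the widest gap between siRNAs of the 10 genes (1.22 on the log2 scale). *SPRY2* showed the reverse, with 91.2% and 45.5% left. *SPRED1* had 81.4% and 51.2% left, and *ETV4* 96.2% and 61.0%. *DUSP4* and *FOSL1* were on different sides of the control with the 2 siRNAs, with log2 changes of -0.17 and 0.15 and of 0.18 and -0.25. In limma 0 of the 10 genes passed an adjusted p of 0.05, where 0.101% of all genes passed. An unadjusted p under 0.05 was found for 0 of the 10 and for 827 of the 11865 genes tested. The smallest unadjusted p from limma was 0.0870, for *DUSP6*, with an adjusted p of 0.717 and a 95% interval of -1.98 to 0.18 around its log2 change of -0.90. *SPOP* itself missed the adjusted threshold in the same fit, with an adjusted p from limma of 0.0948 in 769-P and 0.134 in DU145. A gene that missed it could thus still have changed. The spread in this fit is shared by both lines, and for *DUSP6* and *EGR1* the siRNA libraries lay farther apart in DU145 than in 769-P. With either DU145 siRNA library left out, the 769-P changes stay the same and the spread rests on the 769-P siRNA libraries alone.

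**Figure D2:**
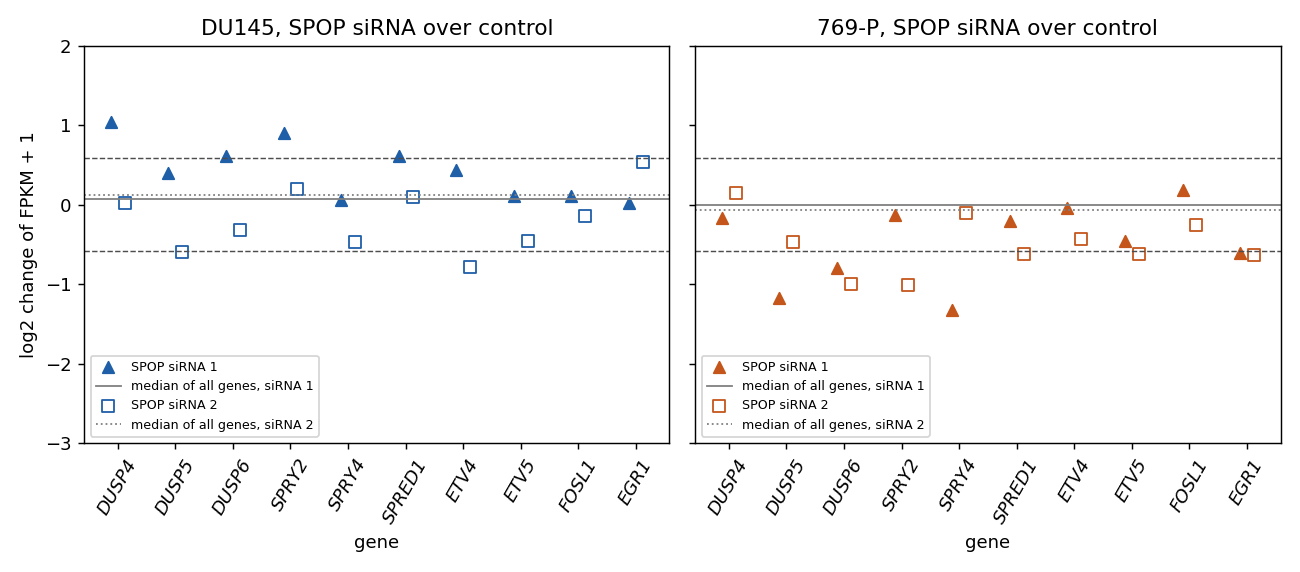
Log2 change of FPKM + 1 of each gene over the control of its line, for DU145 (left) and 769-P (right), with filled triangles for siRNA 1 and open squares for siRNA 2. Dashed lines mark 1.5-fold, and grey lines mark the median of all genes tested, solid for siRNA 1 and dotted for siRNA 2. In DU145 the triangles lie above the squares for 9 of the 10 genes, and in 769-P most symbols lie below 0, with *DUSP6* and *EGR1* past the lower dashed line with both.

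In DU145 the 2 siRNAs moved the genes apart. With siRNA 1 all 10 were above the control (57.0% of all genes tested were), and with siRNA 2 only 4 were above and 6 below (64.0% of all genes tested were above and 35.6% below). The median log2 change of the 10 was 0.42 with siRNA 1 and -0.23 with siRNA 2, against 0.07 and 0.12 for all genes tested. Relative to those medians, 8 genes were above with siRNA 1, with *SPRY4* and *EGR1* now below, and 2 with siRNA 2, *SPRY2* and *EGR1*. The siRNA 2 library was below the siRNA 1 library for 9 of the 10 genes and for 44.04% of all genes tested, with a median log2 difference of -0.63 against 0.05.

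By gene, *DUSP4* was at 233% of the control with siRNA 1 and 102% with siRNA 2, the largest increase with a single siRNA. *SPRY2* had 193% and 116%, *SPRED1* 170% and 109%, and *DUSP6* 159% and 77.9%. *ETV4* had 137% and 56.6%, and *DUSP5* 132% and 65.9%. On the log2(FPKM + 1) scale siRNA 2 minus siRNA 1 was -1.22 for *ETV4*, the widest gap of the 10 genes in this line, and -1.02 for *DUSP4*. *ETV5* (108% and 72.0%), *SPRY4* (105% and 65.5%) and *FOSL1* (108% and 90.5%) were near the control with siRNA 1 and below it with siRNA 2. *EGR1* was the only gene with more in the siRNA 2 library, at 154%, and it was at 102% with siRNA 1. By the rule of 1.5-fold with both siRNAs 0 of the 10 genes were called, where 4.72% of all genes tested were called higher and 1.19% lower. Centring on the median changed the totals from 560 higher and 141 lower to 341 and 242, subtraction of the olfactory receptor mean to 841 and 92, and 0 of the 10 genes were called with either. With siRNA 1 alone *DUSP4*, *DUSP6*, *SPRY2* and *SPRED1* were past 1.5-fold higher, and with siRNA 2 alone *DUSP5* and *ETV4* past 1.5-fold lower. Of all genes tested, 12.04% were past 1.5-fold higher with siRNA 1 and 3.73% past 1.5-fold lower with siRNA 2. In limma 0 of the 10 passed, where 0.135% of all genes did. An unadjusted p under 0.05 was found for 0 of the 10 and for 744 of the 11865 genes tested. The DU145 control enters each of these changes, and it is 1 of the 2 libraries with olfactory receptor values.

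The changes in the 2 lines were then set side by side. *SPRY2*, *SPRED1* and *EGR1* were higher with both siRNAs in DU145 and lower with both in 769-P, a pattern of 10.4% of all genes tested. Relative to the median of all genes only *SPRY2* kept it, with log2 changes of 0.83 and 0.07 in DU145 and -0.12 and -0.95 in 769-P. *DUSP5*, *DUSP6*, *SPRY4*, *ETV4* and *ETV5* were lower with both siRNAs in 769-P and split by siRNA in DU145. The difference of the knockdown effect between the lines, DU145 minus 769-P, was above 0 for all 10 genes, from 0.02 for *FOSL1* to 1.12 for *SPRY2*, although with quantile normalization it was below 0 for *ETV4* and *FOSL1*. In limma 0 of the 10 differences passed an adjusted p of 0.05, while 0.169% of all genes passed. An unadjusted p under 0.05 was found for 0 of the 10 and for 325 of the 11865 genes tested. The smallest unadjusted p from limma was 0.0892 for *EGR1* (log2 difference 0.90, adjusted p = 0.999), with a 95% interval of -0.19 to 1.99. The interval of *SPRY2* was -0.58 to 2.81.

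**Figure D3:**
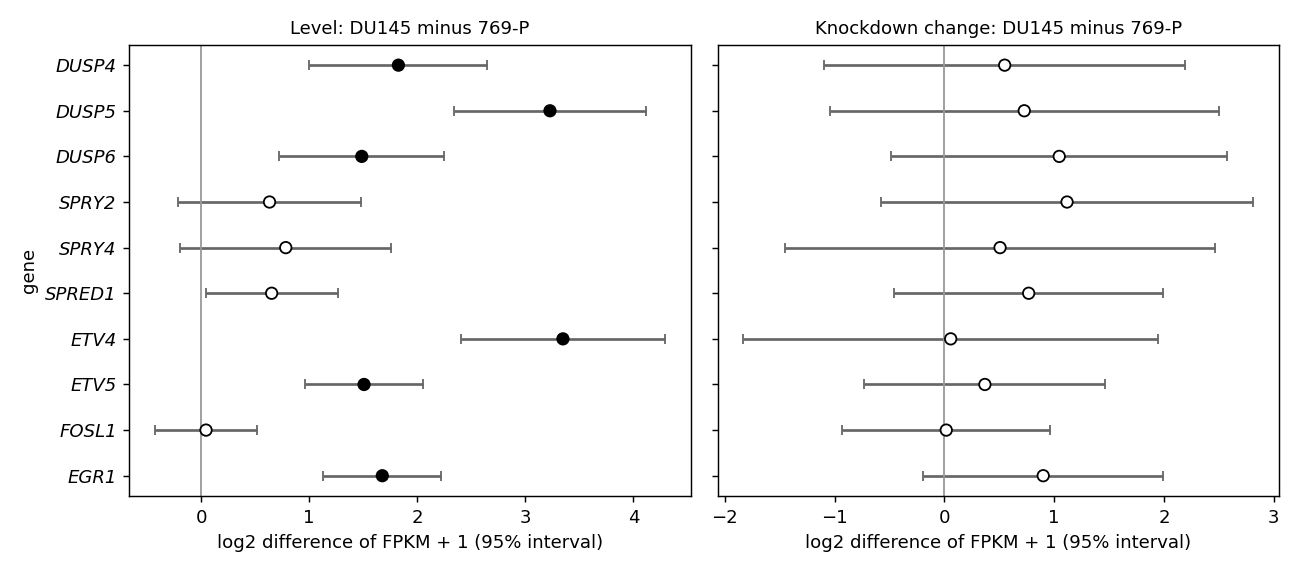
Log2 differences between DU145 and 769-P with 95% intervals from limma, for the level over all libraries (left) and for the change after *SPOP* knockdown (right). Filled circles passed an adjusted p of 0.05. On the left 6 genes passed, led by *ETV4* at 3.35 and *DUSP5* at 3.23, and on the right every interval holds 0.

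The rest of the pathway was read from 5 lists with 98 genes, of which 80 passed the filter. After knockdown 4 of the 80 were called higher and 1 lower in DU145, and 2 higher and 3 lower in 769-P, and 0 passed in limma. The shares of all genes tested were 4.72% and 1.19% in DU145 and 3.60% and 3.73% in 769-P, so these counts are near the background. Their median log2 change was 0.10 in DU145 and 0.07 in 769-P. By list the 769-P median ran from -0.08 for the adaptors and RAS proteins to 0.25 for the other transcription factors and outputs. Of the 15 receptors and ligands tested, 0 were called in either line. Of the 14 adaptors and RAS proteins, *RRAS*, a RAS-related GTPase, was called higher in 769-P, with 40.2 FPKM in the control and 72.3 ± 12.5 after knockdown (SD, n = 2). *RASA2*, a GTPase-activating protein that turns RAS off, was called lower there, at 3.16 FPKM and 1.41 ± 0.0212 (SD, n = 2). Of the 16 genes of the kinase cascade only *MKNK2*, a kinase activated by ERK and p38 that phosphorylates eIF4E, was called, higher in DU145 at 53.9 FPKM and 114 ± 19.2 (SD, n = 2). Of 16 other feedback genes only *RASSF5*, a RAS effector, was called, lower in 769-P at 1.18 FPKM and 0.251 ± 0.0916 (SD, n = 2). *DUSP1*, *SPRED2* and *PHLDA1* were among the feedback genes not called. *DUSP1* nevertheless rose in 769-P, from 32.6 FPKM to 96.0 with siRNA 1 and 49.3 with siRNA 2. Its log2 changes there were 1.53 and 0.58, the second just short of 1.5-fold.

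Of 19 other transcription factors and outputs, *JUND*, an AP-1 subunit, was called higher in both lines, at 57.6 FPKM against 125 ± 11.9 (SD, n = 2) for DU145 and 55.7 FPKM against 99.9 ± 6.09 (SD, n = 2) for 769-P. *ELK1*, an ETS factor that ERK phosphorylates, was called higher in DU145, at 13.9 FPKM against 24.1 ± 2.97 (SD, n = 2), and so was *ETS2*, at 25.6 FPKM against 44.1 ± 5.77 (SD, n = 2). Both lost the call in DU145 with changes centred on the median. *CCND1*, the cyclin D1 gene, was called lower in both lines, with log2 changes of -0.87 and -0.89 in DU145 and -1.07 and -1.59 in 769-P.

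Between the lines, 17 of the 80 pathway genes were higher in DU145 in limma and 24 in 769-P, 21.3% and 30.0%, where 26.8% and 15.3% of all genes tested were. With quantile normalization the split over all genes turned, to 2603 and 2715. The lists are small, and differences between them were not tested. Of the other feedback genes 7 were higher in DU145 and 2 in 769-P, whereas of the other transcription factors and outputs 1 was higher in DU145 and 10 in 769-P. Of the receptors and ligands 1 was higher in DU145 and 7 in 769-P. Among genes named after their values were seen, *DUSP9*, a further ERK phosphatase, had 4.18, 3.47 and 3.81 FPKM in DU145 and was listed at 0 in 2 of the 769-P libraries and at 0.340 in the third, siRNA 2. *ERRFI1*, an inhibitor of the EGF receptor, had 89.2, 116 and 76.9 FPKM in DU145 against 12.7, 26.3 and 11.3 FPKM. In the opposite direction *JUN* had 31.1, 53.2 and 40.2 FPKM in DU145 against 101, 157 and 108 FPKM, *JUNB* 42.1, 29.5 and 29.6 against 94.2, 145 and 117 FPKM, and *MYC* 40.1, 46.2 and 42.04 against 81.1, 124 and 88.2 FPKM, each without overlap. Adjusted p-values from limma for these 5 genes were 0.00108, 0.00433, 0.00405, 0.00128 and 0.00776, in that order. With no filter on low values *ERRFI1*, *JUN* and *MYC* missed the threshold (adjusted p = 0.0769, 0.0586 and 0.0663 from limma). Of the signalling proteins themselves, *MAPK3* (ERK1) had 42.9, 57.1 and 62.0 FPKM in DU145 and 13.3, 19.8 and 13.7 FPKM in 769-P (log2 difference 1.71, adjusted p = 0.00209 from limma). *EGFR*, the EGF receptor, had 40.8 to 43.4 FPKM in DU145 and 29.0 to 41.0 in 769-P. The lines differ in tissue of origin, in disease and in culture medium, which in the study's methods was DMEM for DU145 and RPMI for 769-P. These cannot be told apart here.

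How alike the 10 genes were was described with each line centred on its own mean of log2(FPKM + 1), over the 6 libraries. *DUSP6* followed the median of the other genes most closely (r = 0.99), then *ETV5* (0.90), *SPRED1* (0.82), *ETV4* (0.80) and *DUSP5* (0.78). *EGR1* was least like the others (r = 0.060), and *SPRY4* (0.42), *FOSL1* (0.49) and *DUSP4* (0.57) lay between. Among all other genes tested, *NT5E*, which encodes the ectonucleotidase CD73, was most like the median of the 10 (r = 0.997), with 68.6, 121 and 44.7 FPKM in DU145 and 43.9, 21.8 and 20.2 FPKM in 769-P, followed by *RP9* (0.995) and *POLK* (0.993). With 6 libraries that share 1 control per line and 11865 genes to choose from, such values describe the libraries only.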

How the data were processed

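The authors trimmed 100-bp paired-end reads, mapped them to hg19 with TopHat2, allowing up to 2 mismatches, and named Cufflinks for the expression analysis. The deposited values are FPKM by gene symbol, in a file for each library. FastQC and cutadapt are named in the submitters' processing notes. Tool versions and the gene annotation were not given in the sources used here, and the methods and the labels name different library kits. Reads behind an FPKM value are unknown, which bars count models and counting intervals.

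Repeated symbols were summed, log2(FPKM + 1) was taken, which understates changes of low genes, and the tests covered the 11865 genes averaging 1 FPKM or more. A knockdown call needs 1.5-fold with both siRNAs over the control of the line. Limma 3.58.1 in R 4.3.3 was fitted across all genes with 4 groups and eBayes with a trend, with Benjamini-Hochberg adjustment over those genes. The level of a line was the mean of its control and knockdown groups. The fit and the call were tested on simulated data, with larger knockdown changes and a smaller spread than the 10 genes have. That test does not show what the fit could find in these data. The 10 genes, the pathway lists and the alternatives were chosen with earlier results of these data known. Genes named beside the 10 are pathway genes called in either line, *EGFR* and *MAPK3* for their levels, and the 3 most alike. *DUSP1*, *SPRED2*, *PHLDA1*, *DUSP9*, *ERRFI1*, *JUN*, *JUNB* and *MYC* were also named, chosen with their values known. Alternatives included a pseudocount of 0.1, a filter at 5 FPKM or none, centring, quantile normalization, subtraction of the olfactory receptor mean, 2-fold, the mean of the siRNAs, no trend, a replicate block and libraries left out. Python 3.11.15 and pandas 2.3.3 served for the tables. Direction counts under other scalings were added after seeing the data. Some items are not reported here. Gene positions are from GENCODE on GRCh37.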

Additional observations from a re-analysis of the deposited data

Results flagged for a closer look

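For 3 genes both siRNA libraries lay above the control in DU145 and both below it in 769-P. The difference of the log2 change, DU145 minus 769-P, was 1.12 for *SPRY2*, 0.77 for *SPRED1* and 0.90 for *EGR1*. None of the 3 passed in limma (adjusted p = 0.999 for each), and after centring on the median of all genes *SPRED1* and *EGR1* no longer had opposite directions in all libraries. With the olfactory receptor mean subtracted *DUSP4* joined them, which made 4 genes.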

How the results depend on the processing

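The 6 genes higher in DU145 were 8 when the siRNA number entered as a replicate block, which added *SPRY2* (adjusted p = 0.0177 from limma) and *SPRED1* (0.0274), 4 to 6 with a siRNA library left out, 3 with no filter on low values and 3 without the DU145 control and the 769-P siRNA 2 library. The calls lost were those of *DUSP4*, *DUSP6* and, in the latter 2 settings, *ETV5*, and without either 769-P siRNA library *DUSP4* and *DUSP6*. The cause was not tested. *ETV4*, *DUSP5* and *EGR1* passed under all alternatives in which they were tested. The siRNA numbers are shared by the lines, and the siRNA 2 minus siRNA 1 differences of the lines correlated across genes at 0.27, over 2 pairs only. With the replicate block the knockdown fits passed 18 genes for DU145 and 14 for 769-P, 8 passed for the difference of effects, and 0 of the 10 genes here did in any.

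In 769-P the 2 calls became 1 with a mean of at least 5 FPKM, which leaves out *EGR1*, 1 with centring, 0 at 2-fold, 4 with the mean of the siRNAs and 4 to 5 with 1 siRNA. In DU145 the 0 calls became 2 to 4 with 1 siRNA. With centring the genes higher with both siRNAs in DU145 went from 4 to 1, and those opposite in the lines from 3 to 1. The counts over all genes moved as follows. For calls in DU145 (701) they were 1132 with a pseudocount of 0.1, 1140 with no filter, 440 with at least 5 FPKM, 118 at 2-fold, 1458 with the mean of the siRNAs and 1787 to 2308 with 1 siRNA. For calls in 769-P (869) they were 1489 with a pseudocount of 0.1, 573 with at least 5 FPKM, 145 at 2-fold, 1668 with the mean of the siRNAs and 1723 to 2388 with 1 siRNA. In limma with no filter 1186, 148 and 1202 genes passed for DU145, 769-P and the difference, in place of 16, 12 and 20. With at least 5 FPKM 4 passed for DU145, 3 for the difference and 3261 between the lines, in place of 4994 in the fit on more genes. The difference had 0 with a pseudocount of 0.1 and 10 with quantile normalization. With a siRNA library left out the ranges were 0 to 30, 0 to 7 and 0 to 37, and 2763 to 3892 between the lines. Without the 2 libraries that stood apart 2676 genes passed.

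Signs that turned belonged to values that did not pass. The difference of the knockdown effect was -0.13 for *ETV4* and -0.13 for *FOSL1* with quantile normalization. With a siRNA library left out it ranged from -0.55 to 0.67 for *ETV4*, from -0.20 to 0.24 for *FOSL1* and from -0.10 to 1.12 for *SPRY4*. The DU145 change then ranged from -0.32 to 0.62 for *DUSP6*, -0.59 to 0.40 for *DUSP5*, -0.78 to 0.44 for *ETV4*, -0.47 to 0.059 for *SPRY4*, -0.45 to 0.11 for *ETV5* and -0.14 to 0.11 for *FOSL1*, and the 769-P change from -0.17 to 0.15 for *DUSP4* and -0.25 to 0.18 for *FOSL1*. The line difference of *FOSL1* ranged from -0.063 to 0.16 and was -0.072 without the 2 libraries that stood apart.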
